A study of Mus musculus with 26 samples.

Results

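The genes described here encode the nuclear subunits of the mitochondrial respiratory chain and of ATP synthase, measured in microglia sorted from mouse brain. They were chosen by name. A probe was taken where its transcript accession mapped to a symbol beginning with Nduf plus a, b, c, s or v and a digit (complex I), to Sdha, Sdhb, Sdhc or Sdhd (complex II), or to a symbol beginning with Uqcr (complex III), Cox4 to Cox8 (complex IV) or Atp5 (complex V). This gave 84 genes on 113 probes. Genes entered the test if the scanner software called a probe well above background on 3 or more arrays of any of the 8 groups, and each was represented by its brightest probe, judged by the mean of the 26 arrays. 81 of the 84 genes were tested, among 24738 genes tested in all: 37 of complex I, 4 of complex II, 8 of complex III, 15 of complex IV and 17 of complex V. The names are those of the RefSeq table, and membership follows the name. Ndufa4 counts as complex I here, although the protein is today placed in complex IV, and Cyc1, a catalytic subunit of complex III, falls outside. Cox7a2l and Ndufa4l2 likewise count as complex IV and complex I by name alone, and an alternative was run without Cox7a2l.

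The study compared mice exposed repeatedly to an aggressor (repeated social defeat stress, R-SDS) with mice that were only moved to another cage (naive), in wild-type and TLR-DKO mice. All mice were C57BL/6 and carried 1 CX3CR1-EGFP allele (CX3CR1EGFP/+), so every group has EGFP in place of 1 Cx3cr1 copy, and sorting by EGFP takes any cell in which that promoter is active. Each genotype was sampled naive and after R-SDS, and the labels call stressed wild-type mice susceptible and stressed TLR-DKO mice resilient. Tissue came from punches 1.5 mm wide, from either the nucleus accumbens (NAc) or the medial prefrontal cortex (mPFC), taken 1.5 hours after the last session or cage transfer. The names of the deleted receptors, the age and the sex of the mice are not given in the labels. The study ran 2 independent experiments on different mice, and the labels do not say which sample came from which. Each of the 26 samples pooled 3 to 6 mice and was amplified from 500 pg of RNA; 6 groups have 3 samples, while naive TLR-DKO mPFC and stressed TLR-DKO NAc have 4. Values are log2 of the processed array signal minus the array's 75th percentile, and every difference below is on that log2 scale.

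The respiratory chain passes electrons from NADH (through complex I) or succinate (through complex II) to complex III and on to oxygen at complex IV, and pumps protons across the inner mitochondrial membrane. ATP synthase, called complex V, uses the returning protons to make ATP. Complexes I, III, IV and V each also hold subunits encoded by mitochondrial DNA, which were not analysed here, whereas complex II is built from nuclear genes alone. Activated macrophages, and microglia with them, are known for shifting between glycolysis and this oxidative route, and the nuclear subunit genes are known targets of the transcription factors NRF1, GABP (an ETS factor) and YY1.

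What these genes share in sequence was read from RefSeq promoters of build GRCm38.p6, each holding 250 bases before and 50 after the transcript start. Windows were found for 66 of the 81 tested genes and for 27025 genes in all. All motifs were searched on both strands. The NRF1 letters GCGCATGCG stood in 8 of the 66 windows (12.1%) against 1.81% of all windows. The ETS letters CCGGAAG stood in 16 (24.2% against 9.12%), and the YY1 letters AGATGGCGG in 4 (6.06% against 1.11%), all 4 in complex I genes and 26 to 37 bases after the start. At least 1 of these 3 motifs stood in 24 of the 66 windows (36.4%) against 11.4% of all windows. The common promoter letters differed less: GGGCGG stood in 40.9% against 35.9%, CCAAT in 43.9% against 37.9% and TATAAA in 9.09% against 14.2%. The members' windows had a median GC content of 57.8% against 52.7%. A match describes letters only and is not a measured binding site. The 8 NRF1 matches lay in Atp5g2, Atp5k, Atp5l, Cox6a1, Ndufa8, Ndufa11, Uqcr11 and Uqcrc1, in each complex but II. In Atp5g2, Atp5k, Cox6a1 and Ndufa11 the letters stood on both strands at 1 place before the start, and these 4 stretches are shown as the fullest matches. Each line gives the 180 bases before the transcript start, 5′ to 3′ on the gene's strand, with capitals at the NRF1 letters and, in Cox6a1, also at the reversed ETS letters near its end.
Atp5g2: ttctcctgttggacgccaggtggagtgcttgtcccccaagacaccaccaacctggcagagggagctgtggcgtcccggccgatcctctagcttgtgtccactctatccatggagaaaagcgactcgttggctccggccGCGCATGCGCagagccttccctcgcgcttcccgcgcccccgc
Atp5k: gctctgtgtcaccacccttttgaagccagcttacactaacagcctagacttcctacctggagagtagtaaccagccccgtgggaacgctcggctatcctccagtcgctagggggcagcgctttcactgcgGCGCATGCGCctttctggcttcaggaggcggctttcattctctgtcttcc
Cox6a1: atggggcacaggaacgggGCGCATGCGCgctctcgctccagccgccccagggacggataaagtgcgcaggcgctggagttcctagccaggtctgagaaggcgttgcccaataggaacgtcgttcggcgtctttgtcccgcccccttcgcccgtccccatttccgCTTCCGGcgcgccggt
Ndufa11: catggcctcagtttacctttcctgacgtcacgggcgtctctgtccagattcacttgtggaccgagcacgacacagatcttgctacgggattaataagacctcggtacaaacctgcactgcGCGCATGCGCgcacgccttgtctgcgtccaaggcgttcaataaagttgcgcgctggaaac
The stretches lie at chr15:102671048-102671227 (minus strand, Atp5g2, a gene of the c ring of ATP synthase), chr5:108434400-108434579 (minus strand, Atp5k, subunit e), chr5:115348959-115349138 (minus strand, Cox6a1, the widely expressed form of a complex IV subunit) and chr17:56717582-56717761 (plus strand, Ndufa11, an accessory subunit of complex I). The NRF1 letters began 42 bases before the start in Atp5g2, 50 in Atp5k, 60 in Ndufa11 and 162 in Cox6a1.

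The subunit genes were measured well above background almost everywhere. 77 of the 81 (95.1%) passed that mark on all 26 arrays, compared with 57% of the genes tested. The other 4 were Ndufa10, Ndufa6 and Ndufb6, each above the mark on 25 arrays, and Ndufa4l2, a relative of Ndufa4 known to be induced by low oxygen, on 21. The 3 genes that were not tested are tissue-restricted forms of complex IV subunits: Cox7b2 and Cox8c, known from testis, were above the mark on 0 and 1 arrays, and Cox8b, known from heart and skeletal muscle, on 4. Other tissue-restricted forms of complex IV were above it on all 26 arrays. These were Cox4i2, the alternative form of Cox4i1 known from lung, Cox6a2 and Cox7a1, known from heart and muscle, and Cox6b2, known from testis. Levels are not comparable between probes, so a signal of both forms of a subunit gives no ratio between them.

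The within-group SD had a median of 0.62 over the 81 members and 0.76 over all genes tested. The members were also the brighter genes, with a median level of 2.59 against -0.58 for all genes tested. The part of signal level in the SD was not tested. By complex the median SD was 0.74 in I, 0.56 in II, 0.56 in III, 0.51 in IV and 0.54 in V. Single genes ran from 0.29, in Ndufb3 (an accessory complex I subunit) and Atp5a1 (the alpha subunit of the ATP synthase head), to 1.81 in Ndufb6, another accessory subunit. The wide value of Ndufb6 came from single arrays: its levels in wild-type mPFC were 2.15, 3.09 and -2.55 in the naive samples and 2.95, 2.25 and -4.53 in the R-SDS samples. The low array was replicate 3 in both groups, and both lie on the same slide. The TLR-DKO mPFC arrays of that slide were not low, at 2.15, 1.96 and 1.11 in naive samples and 2.36 after R-SDS.

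**Figure D1:**
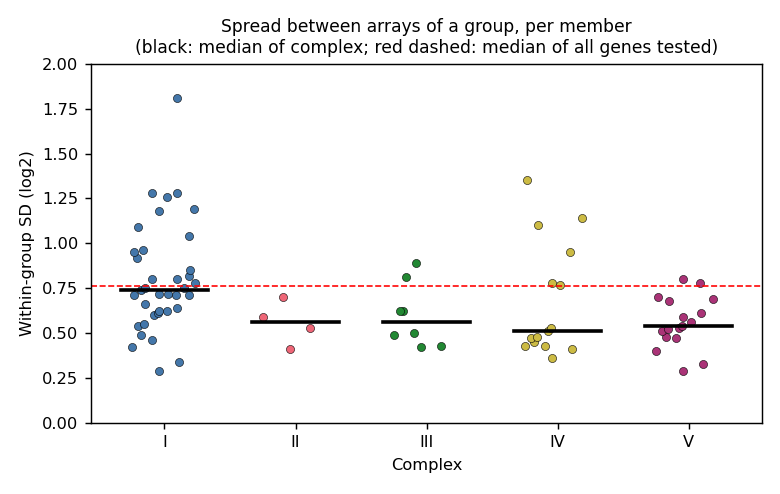
Within-group SD (log2) of each tested member by complex, with the median of each complex as a black line and the median of all genes tested (0.76) as a red dashed line. Most members lie below the dashed line, and complex I reaches highest, up to 1.81 in Ndufb6.

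Markers were set beside the labels of cell type and genotype only. All 12 microglia markers were tested, and Cx3cr1, the gene that carries the sorting EGFP, had a mean between 8.25 and 8.69 in every group. Tlr2, the only receptor gene read for the genotype, had means of 1.37 to 1.93 in the wild-type groups. It was above the background mark on 0 of the 14 TLR-DKO arrays. Markers of other cells were also measured: 10 of 17 neuron markers, 10 of 13 astrocyte markers, 12 of 13 oligodendrocyte markers, 7 of 13 endothelial and mural markers and 12 of 12 perivascular macrophage markers entered the test, as did 7 of 12 monocyte and lymphocyte markers, while S100a9 and Ms4a1 were below the background mark on every array. A pair of arrays stood apart. Wild-type mPFC R-SDS replicate 3 had the lowest 75th percentile of signal (80.7, against up to 340.5), the lowest mean correlation with the others (0.793) and an array weight of 0.25, and the genes tested averaged 0.31 above their own means on it. TLR-DKO mPFC naive replicate 1 had a mean correlation of 0.826 and a weight of 0.47.

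Each array's mean over the 81 members, taken relative to each gene's own mean over the 26 arrays, ran from -0.41 (wild-type NAc naive replicate 1) to 0.59 (TLR-DKO mPFC naive replicate 1), while the same mean over all genes tested stayed between -0.07 and 0.05 on every array but wild-type mPFC R-SDS replicate 3. In TLR-DKO mPFC naive replicate 1, 66 of 81 members were above their own mean, and complex IV reached 0.95. In TLR-DKO NAc R-SDS replicate 2, 15 of 81 were. The complexes went to the same side of their mean together on 14 to 20 of the 26 arrays for the 10 pairs of complexes, with I and V, II and V and III and V at 20 and II and III at 14. Group means with SD over the members were 0.05 ± 0.19 in wild-type mPFC naive (n = 3), 0.24 ± 0.13 in wild-type mPFC R-SDS (n = 3), 0.17 ± 0.33 in TLR-DKO mPFC naive (n = 4) and -0.05 ± 0.23 in TLR-DKO mPFC R-SDS (n = 3). In wild-type NAc they were -0.15 ± 0.24 naive (n = 3) and -0.23 ± 0.07 after R-SDS (n = 3). In TLR-DKO NAc they were 0.09 ± 0.16 (n = 3) and -0.14 ± 0.14 (n = 4). The naive and R-SDS groups overlapped for the members as a whole in each of these pairs. By complex, wild-type mPFC naive and R-SDS overlapped in I only. R-SDS was higher in III (0.23 to 0.33 against -0.27 to -0.01), IV (0.24 to 0.51 against -0.38 to 0.11) and V (0.34 to 0.44 against -0.2 to 0.26). It was lower in II (-0.26 to 0.05 against 0.13 to 0.3). In TLR-DKO mPFC and in the NAc of both genotypes every complex overlapped. The R-SDS arrays of wild-type mPFC include replicate 3, on which all genes tested averaged 0.31 above their own means. None of these array means was tested.

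**Figure D2:**
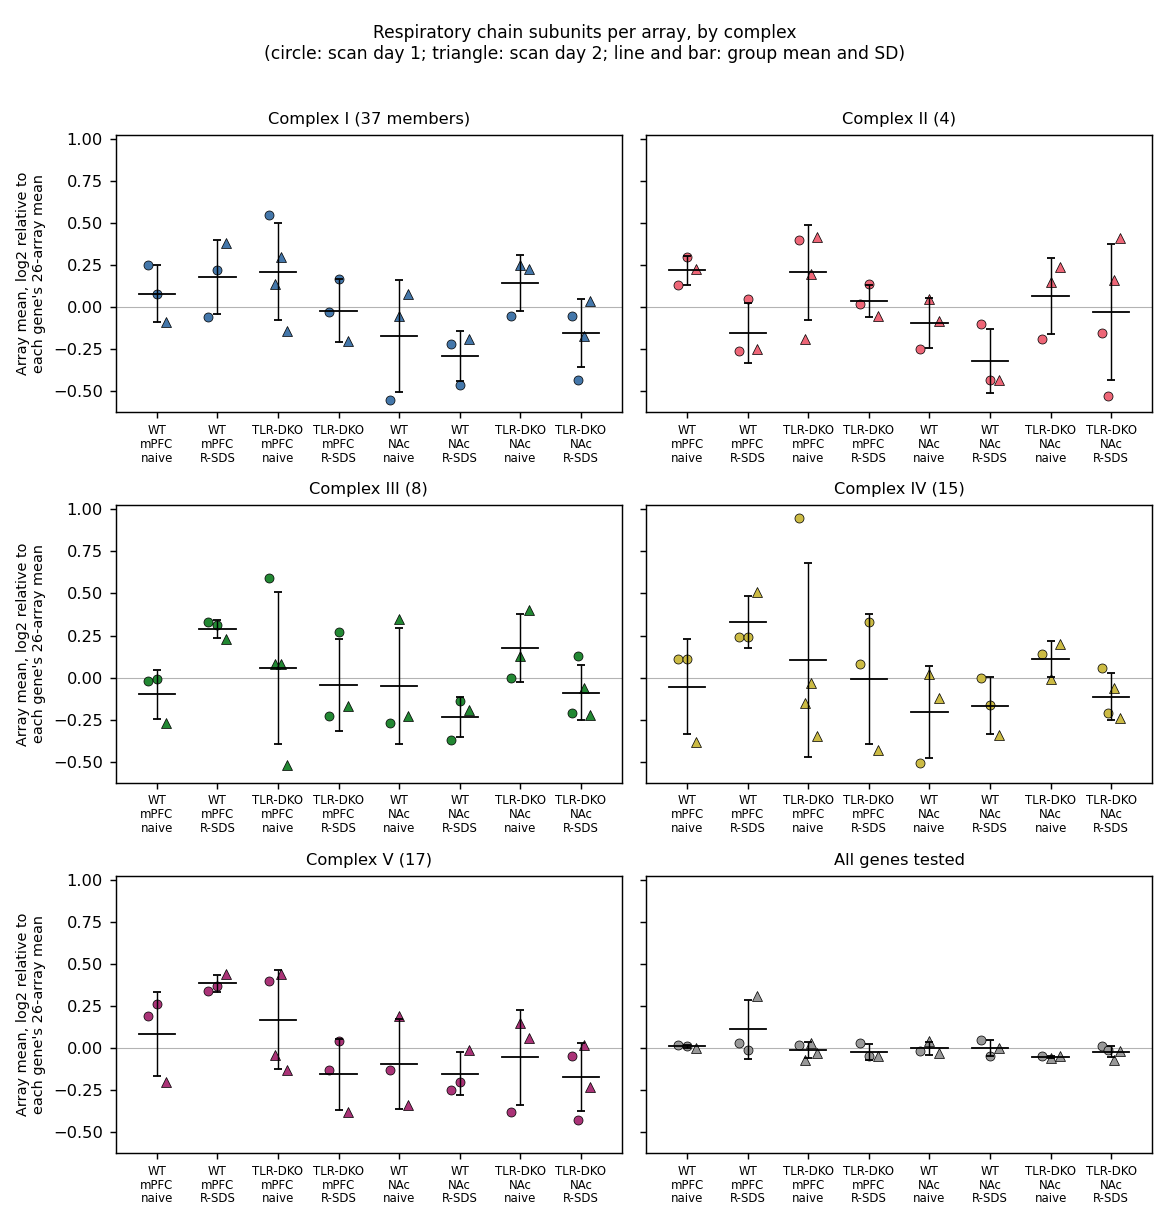
Mean over the members of each complex on each array (log2, relative to each gene's mean over the 26 arrays), by group, with circles for scan day 1, triangles for scan day 2, and a line and bar for group mean and SD; the last panel shows all genes tested. The panel of all genes averages 24738 genes on scaled arrays, so its narrower spread is no baseline for the complexes. Complex IV of TLR-DKO mPFC naive replicate 1 reaches 0.95.

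Stress changed no member past the threshold in any group. In the moderated test of limma with Benjamini-Hochberg adjustment over all 24738 genes, 0 of 81 members had an adjusted p under 0.05 in wild-type mPFC (0.00808% of all genes did), TLR-DKO mPFC (0% of all genes), wild-type NAc (0%) and TLR-DKO NAc (0.00808%), and 0 of 81 in the stress effect averaged over these 4 (0%). The smallest adjusted p of a member was 0.83, 0.919, 1, 1 and 0.805, in that order. At an unadjusted p under 0.05 the members counted 3 higher and 2 lower in wild-type mPFC (3.66% and 2.24% of all genes), 0 higher and 7 lower in TLR-DKO mPFC (2.36% and 2.71%), 1 and 2 in wild-type NAc (1.42% and 1.51%), 0 and 1 in TLR-DKO NAc (1.76% and 1.28%) and 1 and 6 in the average (3.25% and 2.22%). In such pooled RNA, fewer cells of a type and less RNA per cell cannot be told apart, and since the labels do not assign the samples of a group to separate experiments, p-values measure the spread between these pools only.

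In the mPFC the members lay mostly above 0 in wild type and mostly below 0 in TLR-DKO, and the difference between the genotypes passed for none of them. In wild-type mPFC 58 of 81 members (71.6%, against 62.3% of all genes tested) lay above 0 after R-SDS. Their median was 0.29 against 0.17 for all genes tested. The medians were 0.54 in complex IV (13 of 15 above 0), 0.48 in III (6 of 8), 0.32 in V (14 of 17), 0.27 in I (23 of 37) and -0.19 in II (2 of 4). In TLR-DKO mPFC 25 of 81 (30.9%, against 46% of all genes tested) lay above 0, with a median of -0.22 against -0.05. Each of the 5 complexes had a median below 0, from -0.37 in III to -0.10 in IV. The difference of the 2 effects (TLR-DKO minus wild type) had a median of -0.60 against -0.23 for all genes. It lay below 0 for 61 of 81 members and for 14947 of the 24738 genes tested. In limma's test 0 of 81 members passed the threshold (0% of all genes, smallest adjusted p 0.81). At an unadjusted p 1 member was above 0 and 9 below (2.22% and 3.88% of all genes). Complex V had the lowest median, -0.76, and complex II the highest, 0.25. Both arrays that stand apart enter this difference. Without them its median was -0.25 against -0.03 for all genes with 53 of 81 below 0, and under quantile normalization it was -0.09 against -0.04 with 46 below 0. Quantile normalization also left 42 of 81 above 0 in wild-type mPFC and 41 of 81 in TLR-DKO mPFC, with medians of 0.01 and 0.00. Markers of cell types went only partly the same way. In wild-type mPFC 10 of 12 microglia markers (median 0.35) and 9 of 10 neuron markers (median 0.48) lay above 0. In TLR-DKO mPFC 0 of 12 microglia markers (median -0.23) and 6 of 10 neuron markers (median 0.05) did. Of the 12 perivascular macrophage markers 8 lay above 0 in wild-type mPFC (median 0.20) and 2 in TLR-DKO mPFC (median -0.71). Their summed level ran from 3.58 to 4.56 in naive and from 4.31 to 5.86 in R-SDS wild-type mPFC, with overlap, and from 4.40 to 6.13 and from 3.73 to 4.01 in TLR-DKO mPFC, without. The 7 tested endothelial and mural markers summed to 2.10 to 2.75 in naive and 2.60 to 3.83 in R-SDS wild-type mPFC, and to 2.58 to 3.05 and 2.45 to 3.93 in TLR-DKO mPFC. None of the markers given so far passed the threshold. Astrocyte markers summed to 4.16 to 5.18 in naive and 4.29 to 6.24 in R-SDS wild-type mPFC, and to 4.23 to 4.64 and 4.19 to 4.98 in TLR-DKO mPFC. Oligodendrocyte markers gave 4.31 to 4.61 and 4.44 to 5.01, then 4.17 to 5.6 and 4.25 to 4.63. Monocyte and lymphocyte markers gave 4.05 to 4.66 and 4.13 to 4.45, then 3.93 to 4.25 and 3.93 to 4.68. The part of all these markers in the members' values was not tested.

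In the NAc the medians were -0.06 in wild type (35 of 81 above 0, against 0.06 for all genes) and -0.24 in TLR-DKO (27 of 81, against -0.02), and the difference of the 2 effects had a median of -0.16 against -0.07, with 0 of 81 past the threshold (0% of all genes; at an unadjusted p, 0 above and 2 below 0, where 1.37% and 1.15% of all genes were). Over the 4 stress effects, 4 members were above 0 in all of them (Atp5d, Atp5e, Atp5g1 and Cox4i2; 4.94%, against 9.16% of the genes tested) and 8 below 0 in all (Atp5j, Cox6a2, Ndufa1, Ndufa4, Ndufs5, Ndufv1, Sdhb and Uqcrq; 9.88% against 5.74%).

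**Figure D3:**
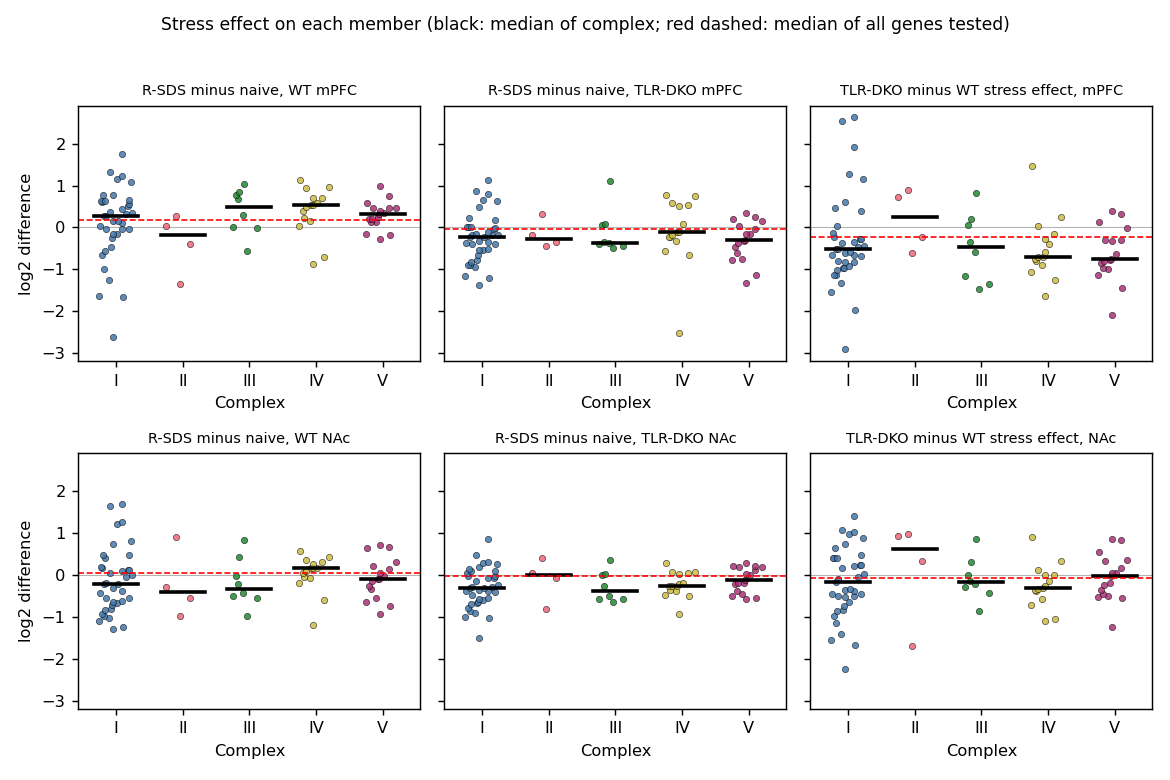
Log2 difference between R-SDS and naive for each member, by complex, in wild-type and TLR-DKO microglia of each region, and the difference between the genotypes' stress effects; black lines are medians of a complex and red dashed lines medians of all genes tested. In the mPFC the complex IV median lies at 0.54 in wild type and -0.10 in TLR-DKO, and in wild-type mPFC single complex I members spread widest.

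Complex II gave the member with the smallest adjusted p for stress, Sdhb, which encodes the iron-sulfur subunit that carries electrons from the flavin of Sdha to the membrane anchors. Its levels in wild-type mPFC were 1.70, 2.06 and 1.85 in the naive samples and 0.12, 0.89 and 0.56 after R-SDS, so the groups did not overlap. In wild-type NAc they were 0.74, 2.34 and 1.42 and then 0.62, 0.20 and 0.72, again without overlap. The TLR-DKO groups overlapped, with 0.85, 1.74, 1.60 and 2.04 against 0.56, 1.29 and 1.47 in the mPFC and -0.15, 1.48 and 1.39 against 0.85, -0.14, 1.31 and 1.35 in the NAc. The differences were -1.35 ± 0.49 (SE), -0.99 ± 0.49, -0.45 ± 0.45 and -0.06 ± 0.45, and their average was -0.71 ± 0.23 (limma, adjusted p = 0.805, unadjusted p = 0.0064). A second probe of Sdhb, above background on all 26 arrays, gave -0.61 in wild-type mPFC and -0.15 on average. The interaction terms, 0.90 ± 0.66 in the mPFC and 0.93 ± 0.66 in the NAc, missed the threshold as well. Sdha, the flavin-carrying subunit, gave -0.01 on average (SE 0.27), and Sdhc, a membrane anchor, measured 4.05, 3.81 and 3.88 in naive TLR-DKO NAc and 4.41, 4.06, 4.57 and 4.32 after R-SDS, without overlap but with a difference of only 0.42 ± 0.41.

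In complex I, Ndufs8, an iron-sulfur subunit of the arm that receives electrons from NADH, measured -0.34, -0.05 and -0.47 in wild-type mPFC naive samples and -0.39, 1.20 and 3.58 after R-SDS. The high value is that of replicate 3, an array that stands apart, and the difference of 1.75 ± 0.92 became 0.69 without it. In TLR-DKO mPFC Ndufs8 measured 2.51, 0.44, 2.53 and -0.83 and then -0.12, -0.23 and 0.32, and its interaction term was -2.92 ± 1.25 (limma, adjusted p = 0.81), or -1.86 without wild-type mPFC R-SDS replicate 3. Ndufs1, the largest iron-sulfur subunit, measured 0.77, 0.54 and 2.95 and then 1.47, 2.24 and 4.54 in wild-type mPFC, again highest in replicate 3. In wild-type NAc its values were 2.42, 1.65 and 2.51 and then 2.03, -1.04 and 1.71, a difference of -1.29 ± 0.92. All these groups overlapped.

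The core subunits of the chain carry the electron path and the ATP synthase head. Of 16 core subunits, 15 members and Cyc1, 13 lay above 0 for stress in wild-type mPFC (median 0.29), against 4 in TLR-DKO mPFC (median -0.34), 3 in wild-type NAc (median -0.36) and 4 in TLR-DKO NAc (median -0.33). Of all genes tested 62.3%, 46%, 55% and 48.1% lay above 0 in this order. The medians of all 81 members were 0.29, -0.22, -0.06 and -0.24. Both arrays that stand apart enter the mPFC values, and 0 core subunits passed the threshold. Ndufv1, which binds the flavin that first takes electrons from NADH, lay below 0 in all 4 stress effects, at -0.99 ± 0.57, -0.54 ± 0.54, -0.44 ± 0.57 and -0.78 ± 0.54 in the same order, and averaged -0.69 ± 0.28 (limma, adjusted p = 0.887). Its partner Ndufv2 averaged -0.26 ± 0.20, and the core subunits Ndufs3 and Ndufs7 averaged -0.15 ± 0.28 and -0.15 ± 0.32. Of the ATP synthase head, the alpha, beta and gamma subunits Atp5a1, Atp5b and Atp5c1 averaged -0.27 ± 0.14, -0.10 ± 0.19 and -0.11 ± 0.21. Each of these 3 lay above 0 in wild-type mPFC (0.20, 0.47 and 0.32) and below 0 in TLR-DKO mPFC (-0.77, -0.38 and -0.32).

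Among the accessory subunits of complex I, Ndufa10 measured 1.73, -0.95 and 1.59 in wild-type mPFC naive samples and -3.10, 0.21 and -2.60 after R-SDS, a difference of -2.62 ± 1.00 with overlapping groups. Ndufs6 measured 0.62, 1.94 and 2.28 in wild-type NAc naive samples and 2.87, 4.24 and 2.71 after R-SDS, without overlap, a difference of 1.66 ± 0.58. Ndufv3 in TLR-DKO NAc measured 2.92, 3.77 and 3.08 and then 2.07, 1.70, 0.78 and 2.47, also without overlap, a difference of -1.50 ± 0.60, but its other probe gave 0.24. None of the 3 had an adjusted p under 0.83. Other wide differences belonged to Ndufc1 (-1.66 ± 0.99 in wild-type mPFC and 0.88 ± 0.93 in TLR-DKO mPFC), Ndufa6 (-1.65 ± 0.85 in wild-type mPFC and 1.23 ± 0.85 in wild-type NAc) and Ndufa11 (-1.26 ± 0.64 and 1.28 ± 0.64 in the same 2 groups). Ndufb2 gave 1.23 ± 0.75 in wild-type mPFC without overlap, and Ndufs5 gave -1.24 ± 0.76 in wild-type NAc and -1.03 ± 0.71 in TLR-DKO NAc with overlap in both. Ndufc1, Ndufa6 and Ndufa11 thus had opposite signs in the pair of groups given for each, and Ndufs5 the same sign. Ndufb10 measured 4.35, 3.36, 2.76 and 2.24 in naive TLR-DKO mPFC and 1.59, 1.38 and 2.41 after R-SDS, a difference of -1.39 ± 0.54. Groups without overlap were counted for 7 members higher and 2 lower in wild-type mPFC (5.06% and 3.04% of all genes), 1 and 5 in TLR-DKO mPFC (2.14% and 4.11%), 4 and 12 in wild-type NAc (4.51% and 3.67%) and 1 and 6 in TLR-DKO NAc (2.11% and 2.11%). Ndufa4, singled out after its values were seen, was among the 12. Its levels in wild-type NAc were 3.90, 4.31 and 3.96 and then 2.99, 3.35 and 3.39, and its average stress difference was -0.55 ± 0.19 (limma, adjusted p = 0.815).

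Complex III members had small average stress effects, which ran from -0.23 ± 0.18 in Uqcrfs1, the Rieske iron-sulfur protein, to 0.29 ± 0.20 in Uqcr11, a small accessory subunit. Uqcrc1, a core protein of the complex, gave 1.11 ± 0.66 in TLR-DKO mPFC, where naive samples measured 1.04, 3.12, 0.68 and 0.48 and R-SDS samples 1.90, 3.71 and 1.70. Each group holds 1 array above 3, and the groups overlap.

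In complex IV the tissue-restricted forms gave both ends of the average stress effect. Cox6a2 had -1.06 ± 0.51 (limma, adjusted p = 0.911) and was below 0 in all 4 effects, the largest in TLR-DKO mPFC with -2.52 ± 0.98, where naive samples measured 3.34, 0.31, -1.87 and 2.20 and R-SDS samples -0.44, -1.32 and -2.83. Naive values spread over more than the difference, and the difference was -1.74 without TLR-DKO mPFC naive replicate 1. Cox4i2 had 0.41 ± 0.16 (limma, adjusted p = 0.887) and was above 0 in all 4. In wild-type NAc it measured 0.43, 0.17 and 0.67 and then 0.60, 0.67 and 0.80, with overlap, and in TLR-DKO mPFC 0.72, 0.08, -0.15 and 0.36 and then 0.62, 1.45 and 0.40. Cox7a1 lay above 0 in wild type, at 0.58 ± 0.37 in both the mPFC and the NAc, and below 0 in TLR-DKO, at -0.67 ± 0.34 and -0.48 ± 0.34, with interaction terms of -1.26 ± 0.50 and -1.05 ± 0.50 that missed the threshold. Over the 5 tested tissue-restricted genes, Ndufa4l2 included, 3 lay above 0 in the average effect with a median of 0.00, and over 7 widely expressed counterparts 4 lay above 0 with a median of 0.02.

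Of complex V, Atp5pb encodes subunit b of the stalk that holds the head in place, and its stress difference in TLR-DKO mPFC was, of all members, the lowest but for those of Cox6a2 and Ndufb10. It measured 2.71, 2.41, 3.05 and 2.68 in naive samples and 1.97, -0.02 and 2.18 after R-SDS, without overlap, a difference of -1.34 ± 0.47 (limma, adjusted p = 0.919) that became -0.64 without the low array, replicate 2. Its other probe gave -1.32. In wild-type mPFC it measured 1.70, 2.28 and 2.07 and then 2.29, 2.19 and 3.83, and the interaction was -2.09 ± 0.69 (limma, adjusted p = 0.81; other probe -2.01), or -1.39 without the low TLR-DKO array. Atp5l, subunit g, taken up because it has 5 probes, gave 0.59, 0.59, 0.56, 0.65 and 0.52 for stress in wild-type mPFC on them. Among the 22 members with several probes above the mark, all probes of a gene had 1 direction in 16 for this effect and in 14 for TLR-DKO mPFC.

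**Figure D4:**
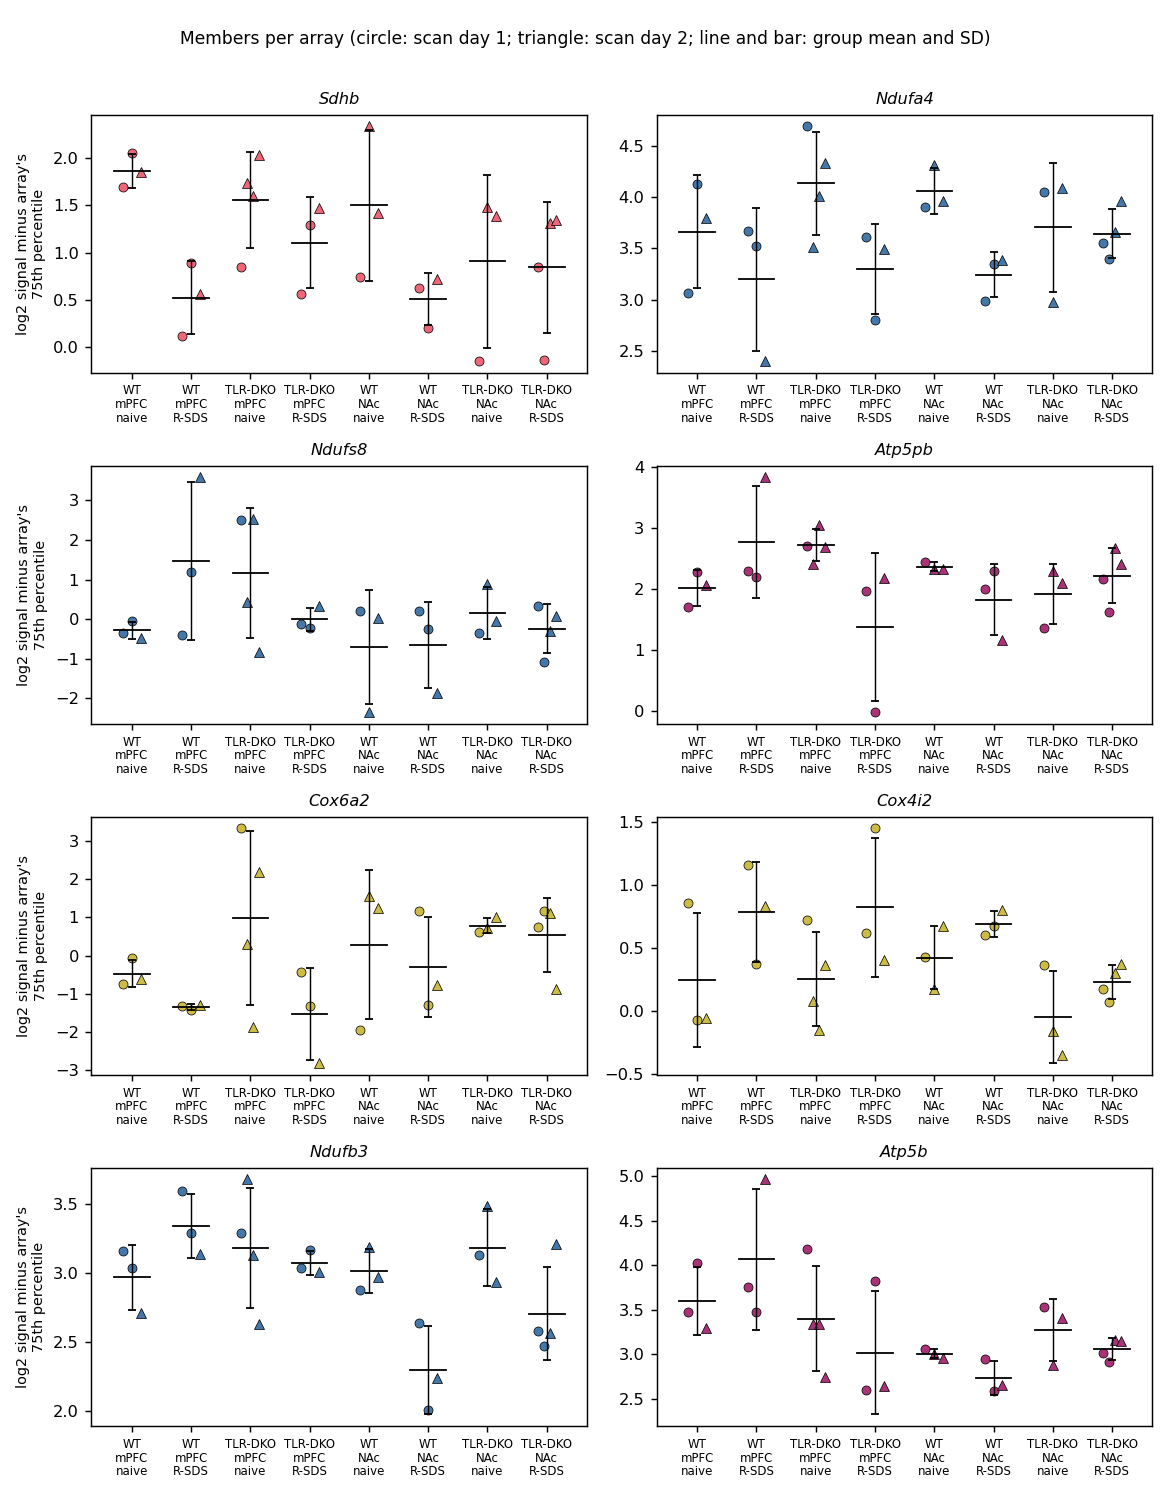
Level of 8 members on each of the 26 arrays (log2 signal minus the array's 75th percentile), by group, with circles for scan day 1, triangles for scan day 2, and a line and bar for group mean and SD; each panel has its own axis. Sdhb lies at 0.12 to 0.89 in wild-type mPFC after R-SDS against 1.70 to 2.06 in naive samples, and the high Ndufs8 and Atp5pb values there are those of replicate 3.

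Genotype likewise moved no member past the threshold. 0 of 81 had an adjusted p under 0.05 in naive mPFC (0.0121% of all genes did), R-SDS mPFC (0.0121%), naive NAc (0.0121%), R-SDS NAc (0.00808%) and the average over these 4 (0.0202%), in limma's test. The smallest adjusted p of a member in that test was 0.512, that of Ndufa4l2 in the average. In naive NAc this gene was well above background on 1 TLR-DKO and 3 wild-type arrays. Its genotype difference thus rests in part on values near background. At an unadjusted p under 0.05 the members counted, as higher and lower in TLR-DKO, 1 and 1 in naive mPFC (2.7% and 2.99% of all genes), 0 and 5 in R-SDS mPFC (1.88% and 3.96%), 3 and 0 in naive NAc (1.37% and 1.93%), 2 and 0 in R-SDS NAc (1.58% and 2.44%) and 1 and 2 in the average (2.07% and 6.16%). The medians were 0.16 in naive mPFC (0.00 for all genes), -0.36 in R-SDS mPFC (-0.24), 0.17 in naive NAc (-0.06), 0.08 in R-SDS NAc (-0.11) and 0.03 on average (-0.09). In R-SDS mPFC 61 of 81 members were below 0, as were 16282 of the 24738 genes tested. The median was -0.65 in complex V (15 of 17 below 0) and 0.16 in complex II. Under quantile normalization 48 of 81 were below 0. The wild-type arrays of this comparison include replicate 3, which stands apart. Markers differed there too: 11 of 12 microglia markers (median -0.51), 9 of 10 neuron markers (median -0.59) and 8 of 12 perivascular macrophage markers (median -0.59) lay below 0. The perivascular macrophage markers summed to 4.31 to 5.86 in wild type and 3.73 to 4.01 in TLR-DKO, without overlap, and the neuron markers to 5.75 to 7.07 and 5.46 to 6.32. None of them passed the threshold, and their part in the members' genotype difference was not tested. Groups of members without overlap were counted there for 0 members higher and 10 lower (3.04% and 6.19% of all genes), against 1 and 2 in naive mPFC (3.12% and 2.63%), 6 and 3 in naive NAc (3.52% and 3.86%) and 7 and 4 in R-SDS NAc (2.09% and 5.11%).

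Uqcrc1 had the largest average genotype difference among the members, 0.83 ± 0.34 (limma, adjusted p = 0.524), and was above 0 in all 4 strata, as was Ndufb10. In naive NAc it measured 2.14, 1.89 and 1.49 in wild type and 3.30, 1.34 and 3.89 in TLR-DKO, and in R-SDS NAc 1.41, 0.78 and 0.42 against 1.59, 2.66, 2.50 and 2.03. The R-SDS NAc groups did not overlap. Atp5g1, another c ring gene, Cox6b2 and Ndufa4l2 were below 0 in all 4 strata, with averages of -0.55 ± 0.27, -0.28 ± 0.22 and -0.40 ± 0.15. Members above 0 in all 4 strata made up 2.47% and those below 0 in all 4 made up 3.70%, against 4.69% and 14.8% of the genes tested.

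Of the 3 averaged effects, region was the most one-sided over the members. Averaged over genotype and treatment, 62 of 81 members were lower in the NAc than in the mPFC, with a median of -0.24 against -0.06 for all genes tested. 0 of 81 passed the threshold in limma's test, where 0.897% of all genes did (222, or 0 with slide as a random block), and 15 were lower and 0 higher at an unadjusted p under 0.05, against 10.4% and 5.01% of all genes. The complex medians were -0.31 in V, -0.24 in I, -0.23 in IV, -0.17 in II and -0.16 in III. The smallest adjusted p in limma's test was 0.136, for Ndufa4l2 at -0.50 ± 0.15, a gene not well above background on 1 mPFC and 4 NAc arrays, 2 of the latter in the 3 naive TLR-DKO samples, so that the difference rests in part on values near background. Next came Ndufa7, an accessory complex I subunit, at -0.94 ± 0.35 (adjusted p = 0.206), and Atp5b, the catalytic beta subunit of ATP synthase, at -0.50 ± 0.19 (adjusted p = 0.221). Atp5a1, the alpha subunit that alternates with Atp5b in the head, gave 0.26 ± 0.14, and was above 0 in all 4 strata. Over these strata 15 members were below 0 in each (18.5%, against 17.7% of the genes tested) and 3 above 0 in each (3.70% against 10.3%), namely Atp5a1, Ndufa1 and Sdhd.

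The 2 regions lie on separate slides, with 1 slide of each region scanned on each of 2 days, so slide and region cannot be told apart, and the members differed between the days. Within day 1, 75 of 81 were lower in the NAc, with a median of -0.52 against -0.06 for all genes. Within day 2, 45 of 81 were, with a median of -0.06 against -0.08. Every complex showed this: the medians on day 1 ran from -0.59 in V to -0.37 in II, and on day 2 from -0.14 in I to 0.12 in III. All 15 members of complex IV were below 0 on day 1 and 7 of 15 on day 2. The array means over the members were -0.05 to 0.59 in the mPFC (7 arrays) and -0.41 to -0.05 in the NAc (6 arrays) on day 1, with -0.05 in both. On day 2 they were -0.27 to 0.37 (6 arrays) and -0.19 to 0.20 (7 arrays), an overlap over most of the range. 44 members were below 0 on both days, 31 on day 1 alone and 1 on day 2 alone. Ndufa4l2 gave -0.48 and -0.52 on the 2 days, Atp5b -0.61 and -0.52, Cox5a, a nuclear subunit close to the catalytic core of complex IV, -0.85 and -1.34, and Ndufa7 -1.34 and -0.65.

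**Figure D5:**
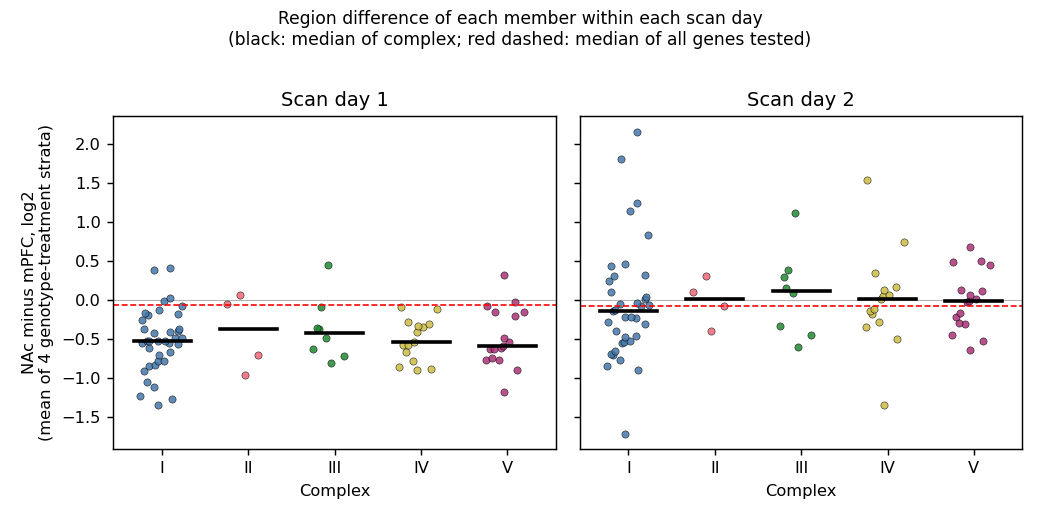
Log2 difference between NAc and mPFC of each member within each scan day (mean of the 4 genotype-treatment strata), by complex, with the median of a complex as a black line and the median of all genes tested as a red dashed line. On day 1, 75 of 81 members lie below 0 and on day 2, 45 of 81, while the medians of all genes are -0.06 and -0.08.

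Over both days together, the median region difference was lowest after R-SDS in wild type, which was not so within day 1. On day 1 the medians were -0.66 in naive TLR-DKO (67 of 81 below 0, 2 arrays), -0.51 in R-SDS wild type (67, 4 arrays), -0.50 in naive wild type (58, 3 arrays) and -0.26 in R-SDS TLR-DKO (62, 4 arrays). On day 2 they were 0.09 (35, 5 arrays), -0.62 (52, 2 arrays, with -0.51 for all genes), 0.16 (28, 3 arrays) and 0.22 (30, 3 arrays) in the same order. On day 1 the naive TLR-DKO value rests on 1 mPFC array, TLR-DKO mPFC naive replicate 1, which stands apart. On day 2 the R-SDS wild-type value rests on 1 mPFC array, wild-type mPFC R-SDS replicate 3, which stands apart too. The strata hold the 2 days in unequal shares, and the differences between strata were not tested. In R-SDS wild type over both days, 63 of 81 members were lower in the NAc (median -0.51, all genes -0.15), and 0 of 81 passed the threshold (0.00404% of all genes). At an unadjusted p, 18 were lower and 1 higher, against 5.72% and 2.79% of all genes, and the groups did not overlap for 13 lower and 2 higher, against 8.27% and 4.60%. Without the 2 arrays that stand apart the median was -0.40 against 0.00 for all genes, with 63 still below 0. Ndufb3 measured 3.60, 3.29 and 3.14 in the mPFC and 2.64, 2.01 and 2.24 in the NAc (-1.05 ± 0.29, limma, adjusted p = 0.393). Atp5b measured 3.76, 3.47 and 4.96 and 2.95, 2.59 and 2.66 (-1.33 ± 0.40, limma, adjusted p = 0.465). Uqcrc2, a core protein of complex III singled out after its values were seen, measured 3.82, 3.94 and 4.13 and 2.69, 2.88 and 2.06 (-1.42 ± 0.42, limma, adjusted p = 0.46). These 3 genes had no overlap between the regions, whereas Cox5a did, at 2.45, 2.75 and 4.16 against 2.55, 1.38 and -2.46 (-2.63 ± 0.89).

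The other 3 strata gave smaller medians: -0.21 in naive wild type (51 of 81 lower), -0.13 in naive TLR-DKO (48) and -0.10 in R-SDS TLR-DKO (51), against -0.02, -0.07 and -0.03 for all genes, and 0 of 81 members passed the threshold in each (0%, 0% and 0.00404% of all genes). At an unadjusted p under 0.05 the counts higher and lower were 1 and 2 (2.05% and 3.1% of all genes), 1 and 3 (2.94% and 5.07%), and 1 and 0 (1.16% and 1.4%). Groups without overlap were counted for 4 members higher and 4 lower (5.47% and 6.11%), 1 and 4 (2.48% and 5.68%), and 0 and 6 (2.14% and 2.84%). Markers of another cell type differed with region as well. All 12 perivascular macrophage markers were lower in the NAc, with a median of -2.15 (1 past the threshold), and their summed level ran from 3.58 to 6.13 over the mPFC arrays and from 1.63 to 3.73 over the NAc arrays. Of the 10 tested neuron markers 8 were lower, with a median of -0.62, and of the 12 microglia markers 10 were, with a median of -0.14. Their part in the members' region difference was not tested.

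The surrounding pathway was followed with lists of its genes, in which 0 genes passed the threshold in limma's test in any of the 17 comparisons, in either direction. Of 46 tested assembly factors, which build the complexes, 23 lay above 0 for stress in wild-type mPFC with a median of 0.00, and the interaction there had a median of -0.27. Of 15 tested regulators of mitochondrial gene expression, 8 lay above 0 for that stress effect (median 0.13), and of 21 citrate cycle genes 12 (median 0.21). Of 22 glycolysis genes 20 lay above 0 for stress in wild-type mPFC (median 0.69, where 62.3% of all genes lay above 0), 8 in TLR-DKO mPFC (median -0.36, 46% of all genes), and the interaction had a median of -0.98 with 19 of 22 below 0. Under quantile normalization the interaction median was -0.49 with 14 below 0, and without the 2 arrays that stand apart -0.62 with 20 below 0; the lists were not tested against each other. The largest single value was that of Pfkp, a phosphofructokinase, at 5.37 ± 1.72 in wild-type mPFC (limma, adjusted p = 0.83). In the average region effect 13 of 22 glycolysis genes lay below 0 (median -0.17), against 62 of 81 subunit genes. Of the electron carriers that the name rule leaves out, Cycs, cytochrome c, gave 1.48 ± 0.49 for stress in wild-type mPFC (limma, adjusted p = 0.83) and -1.95 ± 0.67 for the interaction.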

How the data were processed

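Single-colour Agilent arrays of 26 microglia samples in 8 groups were used. Each array's deposited file gives intensity values per spot, from which Agilent Feature Extraction 11.0.1.1 had subtracted background, per the file headers, which name mouse build mm9. The authors' deposited value table holds log2 values (55821 rows, column medians -2.9 to -2.21) that match the scanner signal scaled to the 75th percentile (r = 1, offset up to 0.0619); it served as an alternative.

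From 59305 non-control spots, averaged to 55681 probes (108 left out for outlier flags, 0 saturated spots), log2 signal minus each array's 75th percentile was computed. RefSeq's GRCm38.p6 table named 28026 of the 29796 probes whose accession has RefSeq's form. A gene needed a probe well above background on 3 arrays of 1 group, which left 24738 genes. Values were fitted with limma 3.58.1 in R 4.3.3 (8 group means, moderated test, Benjamini-Hochberg over all genes, threshold 0.05), and the procedure was tested on simulated data. Every difference is the second-named condition's mean subtracted from the first's: R-SDS minus naive, TLR-DKO minus wild type, NAc minus mPFC. The number of arrays, 3 or 4 a group, limits the precision. Between 50.0% and 71.0% of spots were well above background.

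Named genes were drawn from several sets, and not every gene of a set is given. In each complex the sets held the largest rise and fall of the 3 averaged effects. They also held the 3 largest each way in each stress effect and interaction. Core catalytic subunits, tissue-restricted forms and genes with an outlying sample were further sets. Others are said to be chosen after their values were seen. Left out were, for example, Ndufb11, Ndufb5 and Ndufa9, at 1.41, 1.08 and 1.02 for the NAc interaction. The members and lists were chosen with earlier results of these data known. Alternatives changed the normalization, background correction, filter, probes, samples, slide, scan day and replicate number. Same-numbered samples of a region had a median correlation of deviations of 0.0555 (2 of 12 pairs over 0.1), so the numbers were not taken as pairs.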

Additional observations from a re-analysis of the deposited data

Results flagged for a closer look

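In the 2 groups of 4 samples, the gap between the highest or lowest sample and its nearest neighbour was set against the group's range (Dixon's test at the 95% level). It stood out for 3 of 81 members in each group, where chance gives about 1 in 20. In naive TLR-DKO mPFC, Atp5d (delta subunit of ATP synthase) was 0.64 in replicate 1 against 1.70 to 1.77 in the others, Cox6c (complex IV) 3.19 in replicate 2 against 3.89 to 3.94, and Cox7a1 (the muscle form of a complex IV subunit) 0.41 in replicate 3 against 1.16 to 1.28. In TLR-DKO NAc after R-SDS, Atp5j2 (subunit f of ATP synthase) was 2.51 in replicate 2 against 3.31 to 3.34. In the same group Ndufb3 (complex I) was 3.21 in replicate 4 against 2.47 to 2.58, and Uqcrh (the hinge protein of complex III) 3.34 in replicate 4 against 4.18 to 4.25. The mean over all members was -0.34 in replicate 2 of that group, against -0.08 to -0.05 in the others. The 6 genes are spread over complexes I, III, IV and V and over 5 arrays.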

How the results depend on the processing

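No member passed the threshold under any alternative run, as in the main setting; since nothing passed, this says little about stability. Quantile normalization gave 0.01 for stress in wild-type mPFC, 0.00 for stress in TLR-DKO mPFC, -0.11 for genotype in R-SDS mPFC and -0.09 for the mPFC interaction. With normexp background correction as well, which was run on median spot signals and chosen after seeing the data, the values were 0.00 for stress in wild-type mPFC, -0.10 for genotype in R-SDS mPFC, -0.30 for region in R-SDS wild type and -0.06 for the mPFC interaction. Array weights gave -0.36 and leaving out both outlying arrays -0.25 for that interaction. Slide 1 alone gave 0.02 for stress in wild-type mPFC and -0.57 in TLR-DKO mPFC, where all genes had -0.04 and -0.16. For genotype it gave 0.38 in naive mPFC (all genes 0.05) and -0.10 in R-SDS mPFC (all genes -0.03). For the mPFC interaction it gave -0.69 (all genes -0.09). Naive TLR-DKO mPFC has 1 array on slide 1, the outlying replicate 1. The values -0.57, 0.38 and -0.69 rest on it for that group. Slide 2 alone gave 0.75 for stress in wild-type mPFC, -0.86 for genotype in R-SDS mPFC and -1.09 for the mPFC interaction, where all genes had 0.61, -0.68 and -0.73; the first 2 rest on 2 arrays each, 1 of them the outlying wild-type mPFC R-SDS replicate 3, which enters the interaction as well. The glycolysis alternatives were chosen after seeing the data. The causes were not tested.

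Members near 0 changed sign, and so did some further from 0, among them Ndufb6 and Cox5a. The average genotype effect of Sdhb, 0.00, became -0.04 with quantile normalization, with or without normexp, -0.16 with the mean of its probes, -0.01 with array weights, -0.08 with slide as a block and -0.10 with scan day as a block. The average stress effect of Sdha, -0.01, became 0.00 with normexp plus quantile scaling, and 0.15 if slide or scan day was a block. Ndufb6 for genotype, 0.58, became -0.06 with array weights. With the replicate number as a replicate block, 0 members passed and Sdhb for genotype was -0.08. Leaving out 1 array at a time gave -0.14 to 0.09 for Sdha, -0.09 to 0.13 for Sdhb, -0.03 to 0.36 for Atp5j2 (genotype) and -0.01 to 0.92 for Ndufb6. Cox5a for stress in wild-type NAc, -1.19 ± 0.89 in the main setting, ran from -2.22 to 0.28, the latter without R-SDS replicate 3. Of all genes, the average region effect called 222, and 65 to 371 with 1 array left out, 10 with normexp, 81 with normexp and quantile normalization, 86 with median centring, 128 with no filter, 71 with a trended robust variance, 80 without both outlying arrays, 447 with array weights, 441 with scan day as a block and 0 with slide as a random block.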
